A study of Mus musculus with 8 samples.

Results

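Type 2 conventional dendritic cells (cDC2) were picked out of single mouse kidney cells by their transcript counts. A cell was taken when its counts of *Cd209a*, *Clec10a*, *Cd209c*, *Klri1*, *Adam23* and *Ctnnd2* summed to at least 4 and at least 1 of them came from *Cd209a* or *Clec10a*. Cells with more than 2 counts of the complement genes *C1qa*, *C1qb* and *C1qc* were left out. So were cells with more than 1 count of *Clec9a* and *Xcr1*, of *Fscn1* and *Ccl22*, or of *Flt1*, *Pax5*, *Themis* and *Slc12a1*. The rule found 2153 cDC2 among 90855 cells that had more than 300 genes, fewer than 20000 counts and under 25% mitochondrial counts, which is 2.37% of those cells, out of 120281 barcodes in all. The cDC2 held 9287861 counts, with a median of 4003 counts per cell against 2271 over all cells. Because these 17 genes chose the cells, their levels are given as a description and no result is drawn from them, although they stand among the genes of each fit.

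The cells came from kidneys of male C57BL/6 mice whose age is not given in the sources used here. The control mice were uninjured and untreated. In the other mice the blood supply of the left kidney was stopped and restored (ischemia-reperfusion injury, IRI) with the right kidney left in place. These mice received entospletinib, an inhibitor of the kinase SYK, or its vehicle DMSO by intraperitoneal injection before IRI and were examined 1, 7 or 14 days after IRI. The day 1 mice had that injection alone, and in the others injections went on daily and later less often. Each of the 7 conditions was 1 pool of cells from 3 mice, spread over 8 sublibraries that are portions of the same cells. An SD over sublibraries therefore measures technical error alone, and no test between single conditions was possible. The suspensions had been sorted for live cells and enriched for leukocytes by light scatter, so a share of cDC2 describes the sorted cells and not the kidney.

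Conventional dendritic cells sample antigen in tissue and present it to T cells, and they depend on the growth factor receptor FLT3. Those of type 2 present antigen mainly to CD4+ T cells, carry C-type lectins that bind sugars of microbes and dying cells, and rely on the transcription factor IRF4. Several C-type lectin and Fc receptors signal through SYK, which passes the signal to CARD9, BCL10 and MALT1 and on to NF-κB.

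The levels outside the rule fitted a conventional dendritic cell. Values are CPM, a gene's counts over all counts of the same cells on a common scale, and they are not divided by gene length, so that levels are compared between cells and not between genes. *Flt3* was at 216 CPM in cDC2, 498 CPM in cells chosen as type 1 conventional dendritic cells (cDC1) by *Clec9a* and *Xcr1*, and 4.68 CPM in macrophages chosen by *C1qa*, *C1qb* and *C1qc*. *Zbtb46*, a transcription factor of conventional dendritic cells, was at 216, 320 and 6.51 CPM in the same order. *Irf4* was at 125 CPM in cDC2, 6.40 CPM in cDC1 and 9.31 CPM in macrophages, and *Sirpa*, a surface receptor that separates type 2 from type 1, was at 389 CPM in cDC2 and 57.6 CPM in cDC1. In the opposite direction *Irf8*, the factor on which cDC1 depend, was at 86.0 CPM in cDC2 and 1186 CPM in cDC1, and *Csf1r*, the growth factor receptor of macrophages, was at 113 CPM in cDC2 and 642 CPM in macrophages. *Cd7*, listed as a further cDC2 marker, was low, at 11.6 CPM.

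Genes of antigen presentation ran high in cDC2. *Cd74*, the invariant chain of MHC class II, was at 7111 CPM in cDC2 and 2432 CPM in all other cells, and *H2-Aa*, an MHC class II chain, was at 1598 and 445 CPM. *Ciita*, the regulator of MHC class II genes, was at 1004 CPM in cDC2, 943 CPM in cDC1 and 341 CPM in macrophages. *Ccr7*, the receptor that guides dendritic cells to lymph nodes, was at 25.5 CPM in cDC2. A further class of dendritic cells was chosen by *Fscn1*, *Ccl22* and *Ccr7* (*Ccr7* dendritic cells), and the cDC2 rule had left out cells with more than 1 count of *Fscn1* and *Ccl22*, so the difference in *Ccr7* between these classes was set by how they were chosen. *Il12b*, a chain of interleukins 12 and 23 that neither rule used, was at 0.108 CPM in cDC2 and 203 CPM in *Ccr7* dendritic cells.

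Among genes at 100 CPM or more that were not in the rule, the 20 with the largest ratio of cDC2 to all other cells were led by the long non-coding RNA *Gm16553* (107 against 3.79 CPM). *Klrb1b*, an inhibitory lectin-like receptor, followed at 191 against 18.0 CPM. *Tnip3*, a binding partner of the NF-κB brake A20, was at 795 against 87.2 CPM, and *Tnfsf9*, the costimulatory ligand of 4-1BB, at 193 against 21.1 CPM. *Kmo* (259 against 33.4 CPM) and *Kynu* (166 against 34.8 CPM), enzymes that break down the tryptophan product kynurenine, were both in this group, as were *Bcl11a*, *Flt3*, *Irf4* and *Dpp4*. Several of these genes were also high in other dendritic cells. *Tnip3*, *Tnfsf9* and *Irf4* were at 589, 135 and 134 CPM in *Ccr7* dendritic cells, and *Kynu* was at 241 CPM there and 91.4 CPM in cDC1. *Dpp4* was at 371 CPM in cDC2, 489 CPM in cDC1 and 437 CPM in *Ccr7* dendritic cells, and *Kmo* at 167 CPM in cDC1 and 78.0 CPM in *Ccr7* dendritic cells. These ratios are without a test, since the cells were chosen by their counts.

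**Figure D1:**
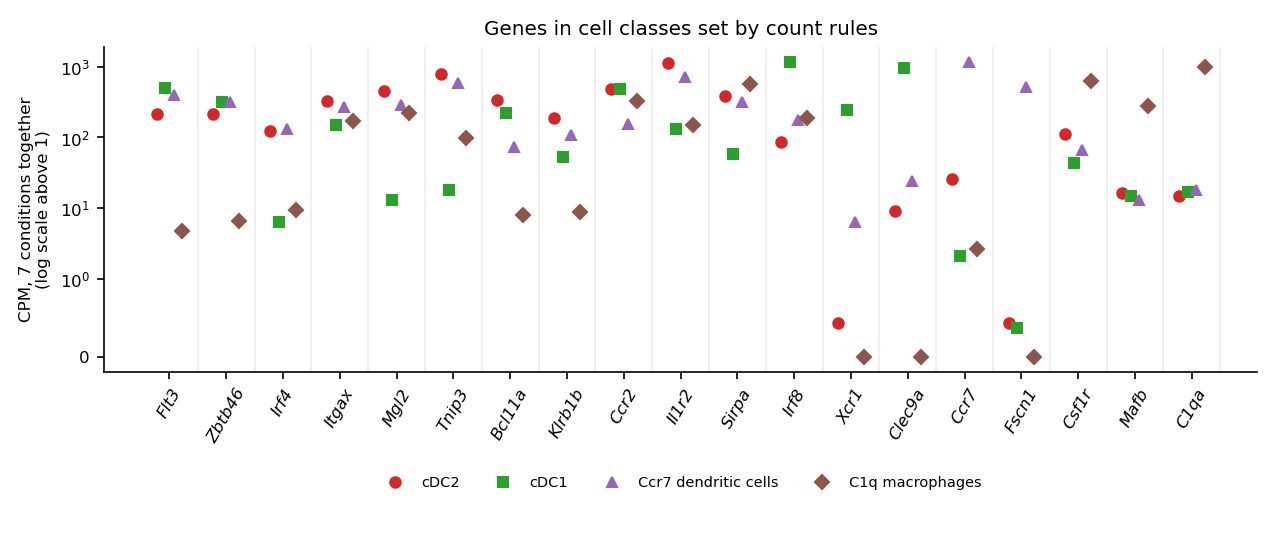
Levels of 19 genes in cDC2, cDC1, *Ccr7* dendritic cells and macrophages with C1q genes, each chosen by count rules and summed over all conditions, as CPM on a log axis. *Flt3* and *Zbtb46* are low in macrophages, and *Irf4* is low in cDC1 (6.40 CPM). *Ccr7* was used to choose the *Ccr7* dendritic cells.

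The 6 marker genes were not evenly spread among cDC2. *Ctnnd2*, which codes for a catenin, was seen in 83.6% of cDC2, *Cd209a* in 75.6% (1.86% of other cells), *Clec10a* in 66.6% (2.94% of other cells), *Cd209c* in 34.4%, *Klri1* in 28.7% and *Adam23* in 24.8%. Of the lectin genes *Cd209a* and *Clec10a*, 42.2% of cDC2 had counts of both, 33.4% of *Cd209a* only and 24.4% of *Clec10a* only. *Cd209a* lies on chromosome 8 (3743397 to 3748984, minus strand) and *Clec10a* on chromosome 11 (70156197 to 70170834, plus strand) in GRCm38 (mm10), and *Cd209a* belongs to a family of similar genes between which reads may have been divided. The median sum over the 6 markers was 7. At the threshold, 344 cDC2 had a sum of 4 and a median of 3175.5 counts per cell, and 422 cells left out by their sum of 3 had a median of 2958 counts. With entospletinib at day 14 the median marker sum was 5, and 62 cells had a sum of 3 beside 104 cDC2.

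The share of cDC2 among all cells differed between the pools, and which pool was lowest depended on the depth of the cells counted. It was 3.13% in the control (351 of 11205 cells, exact Clopper-Pearson 95% interval 2.82 to 3.47). With vehicle it was 1.24% at day 1 (278 of 22489, 1.1 to 1.39), 2.59% at day 7 (158 of 6110, 2.20 to 3.02) and 4.24% at day 14 (732 of 17261, 3.94 to 4.55). With entospletinib it was 1.65% at day 1 (231 of 14041, 1.44 to 1.87), 3.93% at day 7 (299 of 7605, 3.51 to 4.39) and 0.856% at day 14 (104 of 12144, 0.700 to 1.04). The intervals cover counting error only. The SD over the 8 sublibraries ranged from 0.0889 to 0.577 percentage points, and the sublibraries each held 220 to 299 cDC2.

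Against the control, the log2 ratio of the share was −1.34 under vehicle at day 1 (SD 0.25), −0.28 at day 7 (SD 0.14) and 0.44 at day 14 (SD 0.27), with all 8 sublibraries on the same side each time. These ratios share the control. Entospletinib against vehicle gave 0.41 at day 1 (SD 0.52, 7 of 8 sublibraries on that side), 0.60 at day 7 (SD 0.25, 8 of 8) and −2.31 at day 14 (SD 0.24, 8 of 8). The SD covers technical error alone, and each condition was 1 pool, so none of these differences could be tested.

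Depth differed between the pools. The median per cDC2 was 4075 counts in the control, 5153.5, 5104 and 3956 under vehicle at days 1, 7 and 14, and 3544, 3685 and 1887 under entospletinib, and the median over all cells was 933 under entospletinib at day 14 and 2055 to 2928 elsewhere. The rule asks for a fixed number of counts and so depends on depth by its construction. When every cell was thinned to 1000 counts and 2 marker counts were asked for, 5547 of the 12144 cells of entospletinib day 14 were deep enough to stay. The limits on the genes that leave cells out were not lowered, so they were easier to meet after thinning. The thinned shares were 1.88% in the control, 0.636, 1.49 and 3.27% under vehicle and 1.41, 2.39 and 2.36% under entospletinib, so that vehicle at day 1 was lowest. It was also lowest among cells with more than 500 genes (1.30%, beside 1.36% under entospletinib at day 14). The thinned log2 ratio of entospletinib to vehicle was 1.14 at day 1 (SD 0.68, 8 of 8 sublibraries on that side), 0.68 at day 7 (SD 0.85, 7 of 8) and −0.47 at day 14 (SD 0.44, 7 of 8). With the main rule in the same cells, not thinned, the ratio was 0.53, 0.36 and −1.55 at days 1, 7 and 14. Among cells with more than 500 genes it was 0.50, 0.36 and −1.82. Both values at day 14 had 8 of 8 sublibraries on that side. As a share of cDC2, cDC1 and *Ccr7* dendritic cells together, cDC2 made up 46.2% in the control, 52.2, 49.2 and 48.3% under vehicle and 44.6, 51.7 and 28.1% under entospletinib. On this scale the ratio to vehicle was −0.23, 0.072 and −0.78 at days 1, 7 and 14, so that the direction at day 1 turned. The ratio of vehicle to control turned as well at day 1 (0.18, 7 of 8 sublibraries) and at day 7 (0.092, 5 of 8), and was 0.066 at day 14. The thinned values join a change of depth with a change of rule, and the part of depth in these shares was not tested.

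**Figure D2:**
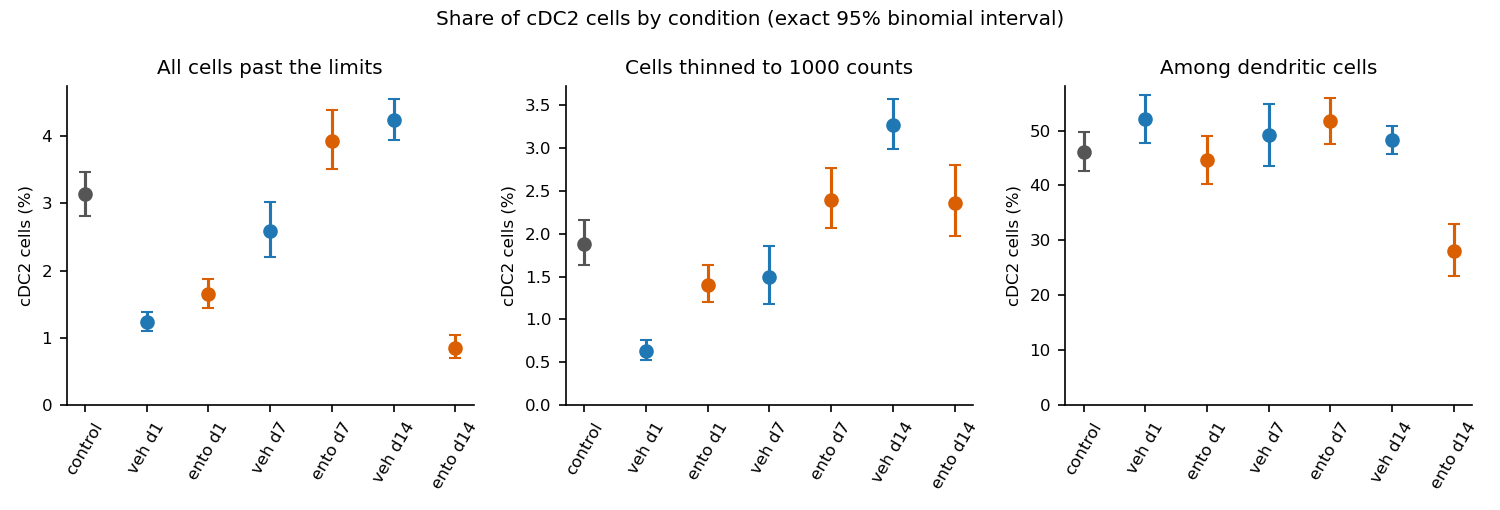
Share of cDC2 in percent by condition, with all cells past the limits as the denominator (exact 95% interval), after thinning each cell to 1000 counts, and among dendritic cells. The low share under entospletinib at day 14 (0.856%) lies at 2.36% after thinning, beside 3.27% under vehicle. Thinning kept only cells of at least 1000 counts and asked for 2 marker counts, with the limits on the genes that leave cells out unchanged. In the same cells without thinning and with the main rule the shares were 1.71% and 5.00%.

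Comparisons of expression within cDC2 used counts summed per pool. A gene was tested when it reached 100 CPM in either pool and 20 counts in both together. Its log2 ratio was set relative to the median ratio of the genes tested, so the median over all genes is 0, and it was called past the fold at a relative ratio of 2-fold or more with all 8 sublibraries on that side. Ratios below are these relative log2 ratios with the SD over sublibraries.

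The cDC2 of injured kidneys differed from those of the control in many genes on all 3 days. With vehicle at day 1, 123 of 2177 genes were past the fold above the control (5.65%) and 89 below (4.09%), together 9.74%. At day 7 there were 79 of 1950 above (4.05%) and 38 below (1.95%), together 6.0%, and at day 14 there were 93 of 1988 above (4.68%) and 31 below (1.56%), together 6.24%. These comparisons share the control pool, so values are given side by side.

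*Htr7*, a serotonin receptor on chromosome 19 (35958734 to 36057507, minus strand), was among the 10 leading genes on every day. It was at 21.0 CPM in the control, 439, 244 and 200 CPM under vehicle at days 1, 7 and 14, and 199, 93.1 and 139 CPM under entospletinib. The 6 injured pools all lay above the control, and at each day the entospletinib pool lay below the vehicle pool. The ratio of vehicle to control was 4.19 (SD 1.95), 3.72 (SD 1.94) and 3.33 (SD 2.13), and in all other cells it was 1.59, 1.20 and 1.67. *Gda*, a guanine deaminase, was at 33.5 CPM in the control, 370, 312 and 262 CPM under vehicle, and 296, 210 and 273 CPM under entospletinib, giving ratios of vehicle to control of 3.28, 3.42 and 3.05. Other cells moved the same way for *Gda* (4.19, 2.61 and 1.77). *Txnrd1*, thioredoxin reductase, was at 54.5 CPM in the control, 237, 220 and 215 CPM under vehicle and 161, 122 and 116 CPM under entospletinib.

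Further genes were among the 10 leading genes at 1 or 2 days. At day 1 these included *Vdr*, the vitamin D receptor, at 10.5 CPM in the control and 104 CPM under vehicle (3.10, SD 1.23), where other cells had −1.22, and *Gpr171*, a G protein-coupled receptor (19.7 and 145 CPM, 2.68, SD 1.34), where other cells had −0.02. *Dock5*, an exchange factor for the GTPase Rac, was at 62.4 and 395 CPM (2.48, SD 0.93). At day 14 *Dcstamp*, a membrane protein of cell fusion, was at 147 CPM against 10.5 CPM (3.87, SD 1.91), with 21.9 and 82.4 CPM at days 1 and 7. *Adgrg6*, an adhesion G protein-coupled receptor, was at 30.9 CPM in the control, 57.8 CPM at day 1, 157 CPM at day 7 and 142 CPM at day 14. *Slc7a11*, the cystine transporter, was at 165 CPM under vehicle at day 7 against 7.22 CPM in the control (4.65, SD 1.51). That ratio was 2.59 without cDC2 that held 2 or more counts of other-class markers (the lists for T, B and NK cells, neutrophils, endothelium, proximal tubule, distal nephron and stroma), and *Cxcl2*, a neutrophil chemokine, likewise went from 3.18 to 1.46. Neither was then past the fold, and both were higher in other cells too (5.23 and 4.98).

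The genes furthest below the control included several that stayed low on all days. *Hpgd*, the enzyme that inactivates prostaglandins, was at 265 CPM in the control, 49.9, 26.7 and 25.8 CPM under vehicle and 25.7, 148 and 50.8 CPM under entospletinib, with ratios of vehicle to control of −2.58 (SD 0.96), −3.07 (SD 1.01) and −3.26 (SD 0.55). Other cells had −2.01, −0.56 and −0.72. *Celf4*, an RNA-binding protein, was at 105 CPM in the control, 9.97, 14.5 and 14.0 CPM under vehicle and 22.2, 37.4 and 55.5 CPM under entospletinib. *Gpr141*, an orphan G protein-coupled receptor on chromosome 13 (19749682 to 19824257, minus strand), was at 446 CPM in the control, 193, 120 and 122 CPM under vehicle and 254, 313 and 407 CPM under entospletinib. Its ratio of vehicle to control was −1.39 (SD 0.53), −1.68 (SD 1.0) and −1.79 (SD 0.29), and at days 7 and 14 other cells had −0.48 and −0.24.

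The glucocorticoid response list held the low genes *Zbtb16* and *Fkbp5*, which are induced by glucocorticoids. Of its 16 genes, 6 were tested, and 3 were below and 1 above at day 1, 2 below and 1 above at days 7 and 14 (median ratios −1.0, −0.50 and −0.32). Of all genes, 4.09, 1.95 and 1.56% were below on these days and 5.65, 4.05 and 4.68% above. *Zbtb16* was at 358 CPM in the control, 83.1, 55.7 and 48.1 CPM under vehicle and 72.5, 150 and 203 CPM under entospletinib, and *Fkbp5* at 183, then 83.1, 50.1 and 48.1, then 111, 86.2 and 240 CPM. Against the control, *Zbtb16* came to log2 ratios of −2.28 (SD 0.64), −2.46 (SD 1.1) and −2.80 (SD 0.78). *Fkbp5* had −1.31 (SD 0.68), −1.65 (SD 1.5) and −1.84 (SD 0.50), close to other cells at days 7 and 14 (−1.93 and −1.85), and at day 7 it was no longer past the fold without cells holding other-class counts (−1.17). *Nr3c1*, the glucocorticoid receptor, was past the fold at day 1 only (308 CPM in the control and 163 CPM under vehicle, −1.09). *Il1r2*, the decoy receptor of interleukin 1 that glucocorticoids also induce, was the gene above at days 1 and 7, at 621 CPM in the control and 2072, 1163 and 1028 CPM under vehicle, with a ratio of 0.81 at day 14 that was not past the fold. The gene above at day 14 was *Cdkn1a*, the cell cycle inhibitor p21 (65.7 and 127 CPM).

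Of the costimulation list, *Cd86* and *Cd80*, which engage CD28 on T cells, were past the fold above the control at days 1 and 7. *Cd86* was at 349 CPM in the control, 1222, 642 and 582 CPM under vehicle and 684, 681 and 606 CPM under entospletinib, with ratios to the control of 1.63 (SD 0.44), 1.09 (SD 0.42) and 0.82 (SD 0.48). *Cd80* was at 141 CPM in the control and 354, 315 and 356 CPM under vehicle, and was past the fold at day 14 as well, with *Pvr*, a ligand of the T cell receptor TIGIT, above and *Havcr2*, the checkpoint receptor TIM-3, below (259 and 85.9 CPM). Of the 16 genes listed, 8, 5 and 6 were tested at days 1, 7 and 14, with median ratios of 0.44, 0.24 and 0.74. The 2, 2 and 3 genes past the fold stand beside 9.74, 6.0 and 6.24% of all genes.

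Receptors for growth factors and cytokines held *Il4ra*, the interleukin 4 receptor, and *Csf2rb*, the shared chain of the GM-CSF receptor, past the fold above the control on all 3 days, beside 5.65, 4.05 and 4.68% of all genes. *Il4ra* was at 66.3 CPM in the control and 306, 190 and 161 CPM under vehicle. *Csf2rb* was at 143 CPM in the control, 419, 260 and 313 CPM under vehicle and 302, 175 and 162 CPM under entospletinib. *Csf2rb* has a close copy, *Csf2rb2*, with which reads may have been divided. The other tested genes of the list, 11 at day 1, 9 at day 7 and 10 at day 14, were not past the fold, except *Tgfbr1*, a receptor of TGF-β, below at day 14 (321 and 141 CPM).

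Of 16 genes of MHC class II, 11, 10 and 11 were tested, with medians of 0.17, −0.05 and 0.04. Those past the fold, beside 9.74, 6.0 and 6.24% of all genes tested, were the lysosomal enzymes *Ifi30* above at day 1 (139 and 361 CPM) and *Lgmn* below at day 14 (322 and 133 CPM). *Cd74* was at 6928 CPM in the control, 8579, 4763 and 6473 CPM under vehicle and 8468, 8161 and 6277 CPM under entospletinib. No gene of MHC class I and cross-presentation was past the fold among 7 tested on each day. Among genes of dendritic cell identity, 16, 14 and 15 were tested. *Id2*, a factor of dendritic cell development, was past the fold above the control at day 1 (44.6 and 103 CPM), and *Itgax*, which codes for CD11c, and *Relb*, a subunit of NF-κB, at days 7 and 14, beside 5.65, 4.05 and 4.68% of all genes above. *Itgax* was at 181 CPM in the control and 399, 340 and 385 CPM under vehicle. *Flt3* was at 320 CPM in the control and 237, 139 and 180 CPM under vehicle, with no ratio past the fold.

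*Il1b*, which codes for interleukin 1β, was at 1225 CPM in the control, 3091, 1836 and 2070 CPM under vehicle and 2509, 2198 and 2764 CPM under entospletinib, and was past the fold at day 1 (1.16, SD 0.59). In all other cells summed over the conditions it was at 1978 CPM. Of the 16 cytokines, only 2 were tested on any day.

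In the NF-κB list *Bcl3* was past the fold above the control at day 1, *Nfkb1* at day 7, and *Nfkb1*, *Bcl3*, *Nfkbie* and *Traf1* at day 14, out of 11, 9 and 11 tested, beside 5.65, 4.05 and 4.68% of all genes above. Markers of *Ccr7* dendritic cells outside the rule summed to 39.4 CPM in the control and 61.2, 120 and 109 CPM under vehicle. Their part in these differences was not tested. *Nfkb1*, which codes for the NF-κB subunit p105, was at 685 CPM in the control and 1381, 1340 and 1379 CPM under vehicle. Of the immediate early genes, 16 were tested on each day, with medians of −0.19, 0.11 and 0.48. At day 1 the nuclear receptor *Nr4a2* was above and the AP-1 subunit *Jund* below, at day 7 none was past the fold, and at day 14 *Nr4a2*, *Nr4a3* and the AP-1 subunit *Fosl2* were above, with *Nr4a3* at 595 CPM in the control and 1384 CPM under vehicle. Heat shock genes past the fold were below the control, namely *Hsph1*, *Hsp90aa1*, *Dnajb1* and *Hspa1b* at day 1 and *Hsph1*, *Hsp90aa1* and *Hspa1b* at day 7, out of 10 tested, and none at day 14 (medians −0.83, −0.90 and −0.18), beside 4.09, 1.95 and 1.56% of all genes below. *Hsph1*, a co-chaperone of HSP70, was at 580 CPM in the control and 168, 197 and 463 CPM under vehicle. *Pfkp*, a phosphofructokinase of glycolysis, was above on all 3 days (156 CPM in the control, 574, 466 and 483 CPM under vehicle), and the glycolytic genes *Pkm* and *Eno1* at day 1, out of 7, 4 and 4 tested of the hypoxia and glycolysis list.

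Of the C-type lectin list, 5, 4 and 4 genes were tested at days 1, 7 and 14, beside the same shares of all genes past the fold (9.74, 6.0 and 6.24%). *Clec4b1* was below the control on all 3 days (171 CPM, then 65.8, 49.0 and 79.2 CPM) and *Clec7a*, the β-glucan receptor dectin-1, above at days 7 and 14 (145 CPM, then 419, 301 and 410 CPM). *Klrb1b* was above at days 1 and 14 (94.5 CPM, then 249, 145 and 197 CPM), and *Mrc1*, the mannose receptor, at day 14 (246 and 493 CPM). *Cxcr4*, the chemokine receptor for CXCL12, was below at days 7 and 14 (118 CPM, then 116, 44.5 and 34.7 CPM), where other cells had a ratio of 0.43 at day 14. Of 24 cell cycle genes, 5 were tested at day 1, and *Top2a*, *Mki67* and *Ccnd3* were below (4.09% of all genes) and none above, with a median of −1.07. *Mki67* and *Top2a*, genes of dividing cells, had ratios of −3.72 (SD 2.18) and −3.67 (SD 1.5). *Mki67* was at 221 CPM in the control, 18.6, 225 and 230 CPM under vehicle and 151, 112 and 305 CPM under entospletinib.

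**Figure D3:**
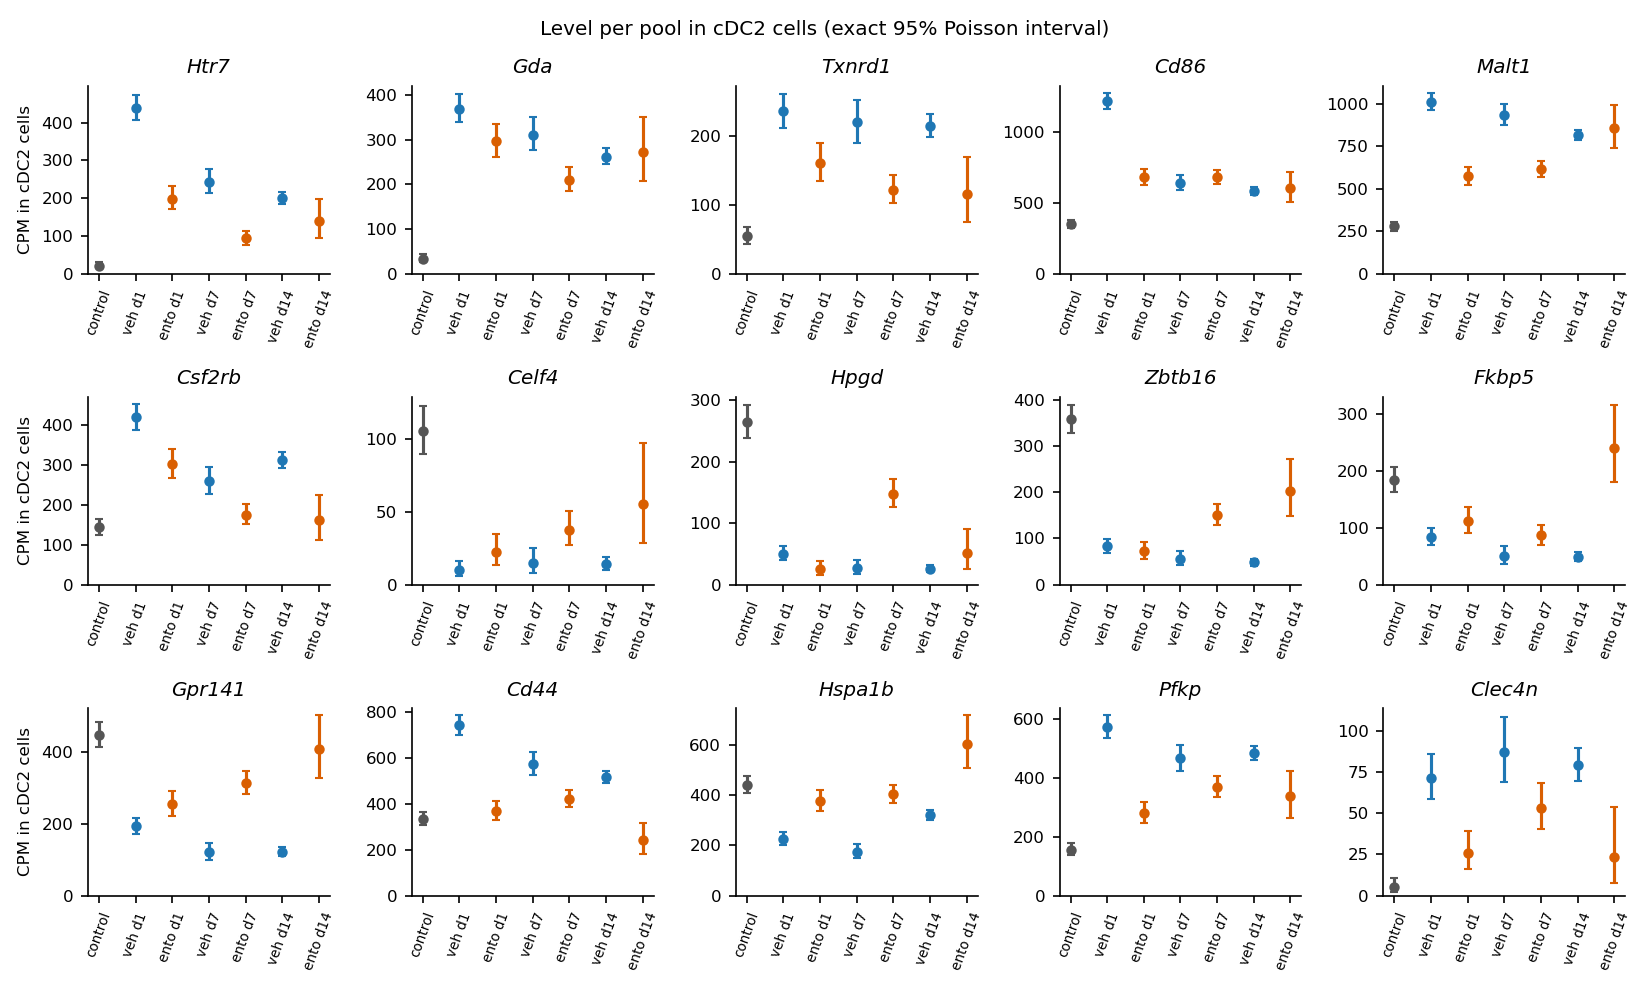
Levels of 15 genes in cDC2 by pool as CPM with exact Poisson 95% intervals, for the control and for vehicle and entospletinib at days 1, 7 and 14. *Htr7* is lowest in the control (21.0 CPM) and *Zbtb16* highest there (358 CPM).

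The 2 treatments were then set side by side within each day. Under entospletinib at day 1, 9 of 2071 genes were past the fold above vehicle (0.435%) and 6 below (0.29%), together 0.724%. At day 7 there were 4 of 1952 above (0.205%) and 18 below (0.922%), together 1.13%, and at day 14 there were 13 of 1978 above (0.657%) and 15 below (0.758%), together 1.42%. With TMM scale factors in place of the median gene the split was 5 above and 8 below at day 1 and 8 above and 17 below at day 7. Without sublibrary s8 there were 36 genes past the fold at day 7 in place of 22. The counts depended on other settings too, with the values given at the end. Fewer genes were past the fold at day 1 without cells holding other-class counts. More were at day 7 with a minimum of 50 CPM or the ribosomal protein limit, and at day 14 with a minimum of 50 CPM or of 6 marker counts. Without the demand on sublibraries, 25, 50 and 72 genes were past 2-fold at days 1, 7 and 14, beside 243, 160 and 139 for vehicle over control. The median SD at day 14 was 0.85 for entospletinib over vehicle, whose pool held 216329 counts, and 0.37 for vehicle over control. Whether the 2 kinds of comparison differ in the number of genes was not tested. No gene was past the fold in the same direction on all 3 days. The vehicle pools also enter the comparisons with the control.

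Many of the same-day differences were also present in all other cells. *Peak1*, a pseudokinase of the cytoskeleton, was at 4974 CPM in cDC2 under entospletinib at day 1 and at 135 to 227 CPM in the other 6 pools (5.36, SD 0.65), and other cells of that pool held 4263 CPM (3.59). At day 1 *Il31ra*, *Rpph1*, *Cdk8* and *Rn18s-rs5* were above vehicle in cDC2 by 2.98, 2.57, 1.29 and 1.04 and in other cells by 2.70, 3.07, 1.08 and 0.98. At day 7 *Cmss1*, *Lars2*, *Gphn* and *Gm19951* were below vehicle, at −1.97, −1.74, −1.72 and −1.61 in cDC2 and at −2.19, −1.86, −1.93 and −1.85 in other cells. At day 14 *Gm19951* and *Lars2* had −1.83 and −1.36 in cDC2 and −1.73 and −1.24 in other cells. The cause of these pool-wide differences was not tested.

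At day 1 the genes below vehicle included *Clec7a* (419 and 133 CPM, −1.45, SD 1.80), *Il1r2* (2072 and 869 CPM, −1.05, SD 0.75) and the nuclear receptor *Nr4a2* (387 and 164 CPM, −1.04, SD 0.67). Other cells had −0.99, −1.16 and −1.07. *Cass4*, a scaffold protein of adhesion, was at 235 and 91.3 CPM (−1.16), and *Arl5b*, a small GTPase, at 104 and 38.6 CPM (−1.23). *Mki67* was above vehicle (18.6 and 151 CPM, 3.19, SD 1.62), where other cells had 0.81. It was counted in 22 of 231 cDC2 under entospletinib, of which 1 held 23.3% of the counts, and the ratio was 3.07 without the top cell of each pool.

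At day 7 the chemokine *Ccl4* was above vehicle (67.9 and 186 CPM, 1.16, SD 0.63), where other cells had 0.00, but the ratio was 0.54 without cDC2 that held other-class counts. *Gpr141* was above at 120 and 313 CPM (1.09, SD 0.81), with 0.68 in other cells, and *Mir142hg*, the host transcript of a leukocyte microRNA, at 109 and 279 CPM (1.06, SD 0.59), with −0.28 in other cells. *Slc7a11* (−3.65, SD 1.43), *Acod1*, the enzyme that makes itaconate (−3.43, SD 2.04), and *Cxcl2* (−2.19, SD 1.23) were below. In other cells these had −4.45, −3.87 and −3.91, and without cDC2 that held other-class counts the cDC2 ratios were −1.28, −0.44 and −1.14. Of the 299 cDC2 under entospletinib at day 7, *Slc7a11* was counted in 18 and *Acod1* in 10.

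At day 14, where 104 cDC2 held 216329 counts, *Gpr141* was again above vehicle (122 and 407 CPM, 1.69, SD 0.71), with 0.62 in other cells. *Csad*, an enzyme of taurine synthesis, was at 43.6 and 143 CPM (1.66, SD 0.68), with 0.43 in other cells. *Hspe1*, a mitochondrial chaperone, was at 68.4 and 143 CPM (1.01, SD 0.65). Below vehicle were *Cd44*, the hyaluronan receptor (515 and 240 CPM, −1.15, SD 0.85), *Hk2*, hexokinase 2 (139 and 50.8 CPM, −1.5, SD 2.36), and *Il21r*, the interleukin 21 receptor (175 and 78.6 CPM, −1.21, SD 2.02), which had 0.08 in other cells. *Hk2* was counted in 9 and *Il21r* in 14 of the 104 cDC2, so that these values rest on few cells. *Fkbp5* and *Zbtb16* were at 240 and 203 CPM under entospletinib against 48.1 and 48.1 CPM, with ratios of 2.26 (SD 1.55) and 2.02 (SD 1.31), but not all sublibraries were on that side.

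**Figure D4:**
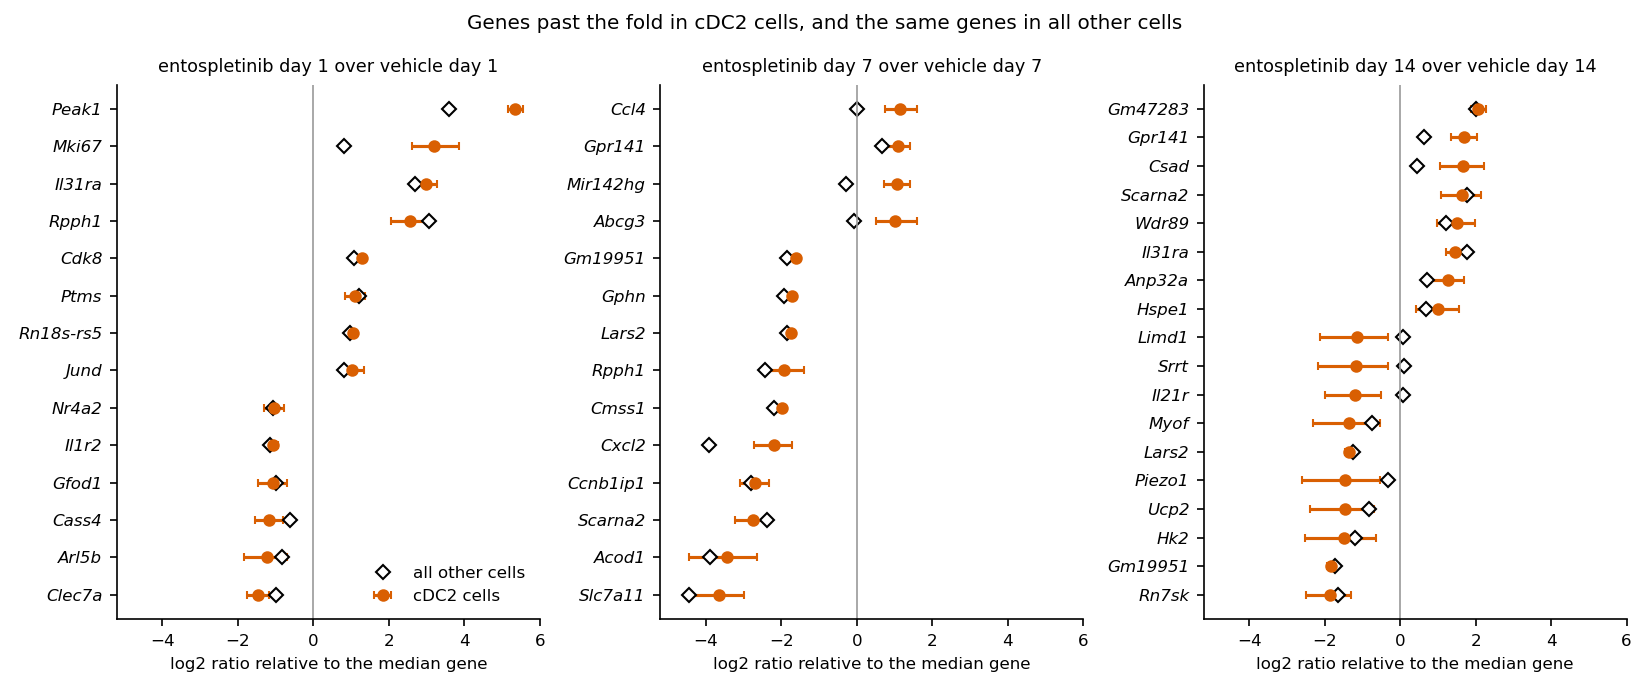
Relative log2 ratio of entospletinib to vehicle for the genes named at each day, in cDC2 with 95% interval and in all other cells. Genes such as *Peak1* and *Gm19951* lie far from 0 in both, while *Mir142hg* at day 7 lies at 1.06 in cDC2 and −0.28 in other cells.

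A difference shared by the days was tested across the 6 injured pools. With day as a factor, edgeR's quasi-likelihood test of treatment with Benjamini-Hochberg adjustment called 22 of 7784 genes higher under entospletinib (0.283%) and 20 lower (0.257%), and 695 had an unadjusted p below 0.05. One of the 22 is *Clec10a*, whose counts chose the cells, so that nothing is read from it. The fit has 2 residual degrees of freedom, and edgeR draws the variance of each gene toward that of all genes. Its p-values thus do not rest on a gene's own spread alone, and they cover only the spread between these pools, 1 for each condition. The calls depend on the pairing of the pools by day, since without it edgeR called 0 genes (lowest adjusted p = 0.4256, 416 at an unadjusted p below 0.05). They also depend on single days. Without day 1 there were 19 calls, 9 of them shared with the 42, without day 7 there was 1 call and none shared, and without day 14 there were 2 calls, *Htr7* and *Gfod1*. DESeq2 called 5 genes, which were *Htr7*, *Cd44*, *Gpr141*, *Hspa1b* and *Atp1b1*.

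*Htr7* was lower under entospletinib by the edgeR quasi-likelihood test (log2 fold change −1.13, SE 0.18, adjusted p = 0.00177) and was lower on each of the 3 days, with relative ratios of −0.94, −1.68 and −0.58. *Cd44*, on chromosome 2 (102811141 to 102901665, minus strand), was at 334 CPM in the control, 741, 571 and 515 CPM under vehicle and 369, 421 and 240 CPM under entospletinib. At each day the entospletinib pool lay below the vehicle pool, and the edgeR test gave −0.88 (SE 0.16, adjusted p = 0.00421). *Gfod1*, an oxidoreductase-like protein, had −1.17 (SE 0.19, adjusted p = 0.00177 by edgeR), with 209, 153 and 103 CPM under vehicle and 86.6, 65.3 and 69.3 CPM under entospletinib.

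Also lower was *Clec4n*, dectin-2, a C-type lectin that signals through SYK. It was at 5.25 CPM in the control, 71.1, 86.8 and 79.2 CPM under vehicle and 25.7, 53.1 and 23.1 CPM under entospletinib (edgeR log2 fold change −1.22, SE 0.24, adjusted p = 0.00832). DESeq2 did not call *Clec4n*, and its level under entospletinib at day 14 rests on few of the 216329 counts of that pool. *Txnrd1* (−0.80, SE 0.17), *Emilin2*, an extracellular matrix glycoprotein (−0.79, SE 0.17), *Ehd1*, a protein of endosome recycling (−0.96, SE 0.20), *Pfkp* (−0.69, SE 0.15) and *Csf2rb* (−0.68, SE 0.16) were lower as well. *Gm19951* was called lower (−1.26, SE 0.24) and was also lower in all other cells at days 7 and 14. All of these were lower under entospletinib on each day. *Htr7*, *Gda*, *Txnrd1*, *Cd44*, *Clec4n*, *Pfkp* and *Csf2rb* were higher under vehicle than in the control on every day. Since vehicle enters both comparisons, no relation between them was computed.

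Among the genes called higher, *Gpr141* had a log2 fold change of 1.09 (SE 0.18, edgeR adjusted p = 0.00504). *Hspa1b*, an inducible HSP70, was at 440 CPM in the control, 226, 175 and 321 CPM under vehicle and 378, 403 and 606 CPM under entospletinib (edgeR log2 fold change 0.90, SE 0.15, adjusted p = 0.00177). The entospletinib pool lay above the vehicle pool at each day. *Hspa1b* lies at 34956436 to 34959238 on chromosome 17 beside its near-identical copy *Hspa1a* (0.55, SE 0.16, adjusted p = 0.13), and reads may have been divided between them. *Dnajb1*, an HSP40 partner of HSP70, was higher by 0.81 (SE 0.19, adjusted p = 0.049). *Anp32a*, a phosphatase inhibitor (0.92, SE 0.17), *Atg4a*, a protease of autophagy (0.93, SE 0.18), and *Celf4* (1.44, SE 0.35) were higher too.

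The genes called higher further held *Rps23*, *Rps15*, *Rps29*, *Rpl13*, *Rpl21* and *Rpl41*, which code for ribosomal proteins and were chosen after their values were seen. Of 97 ribosomal protein genes tested, these 6 were called higher and none lower (0.283% of all genes were called higher), with a median log2 fold change of 0.38. The study's own limit of 1.5% ribosomal protein counts, which the cell rule did not use, was exceeded by 21.1% of cDC2 in the control, 27.3, 15.8 and 7.92% under vehicle and 49.4, 30.8 and 42.3% under entospletinib. When that limit was applied, none of these 6 was called (log2 fold changes 0.36 to 0.69, edgeR adjusted p from 0.222 to 0.699). The limit takes out cells by their counts of these same genes, so the loss of these calls was partly set by its construction. In all, 5 genes were higher and 8 lower with the limit, and *Htr7*, *Cd44*, *Gpr141*, *Hspa1b*, *Gfod1* and *Csf2rb* were among them. The part of this difference between the pools in the other calls was not tested.

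Several genes called higher are known from other cells of the kidney. *Slc12a3*, the sodium-chloride cotransporter of the distal tubule, was at 18.5 to 38.1 CPM in the control and vehicle pools and at 152, 46.1 and 37.0 CPM under entospletinib. A single cell held 82.3% of its counts at day 1, and the ratio there went from 2.50 to 0.29 without the top cell of each pool. *Nr3c2*, the mineralocorticoid receptor, and *Defb1*, a defensin, were called at 3.34 to 32.4 and 4.45 to 25.2 CPM, and a single cell held 52.2 and 62.1% of their counts under entospletinib at day 7. *Ebf1*, a B cell factor, rested to 49.1% on 1 cell there. *Atp1b1*, a chain of the sodium pump (28.6, 36.7 and 52.8 CPM under vehicle, 79.6, 100 and 120 CPM under entospletinib, 1.32, SE 0.22, edgeR adjusted p = 0.00177), is abundant in tubules. Its fold change was 1.25 without cDC2 that held other-class counts (edgeR adjusted p = 0.222), and DESeq2 also called it.

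**Figure D5:**
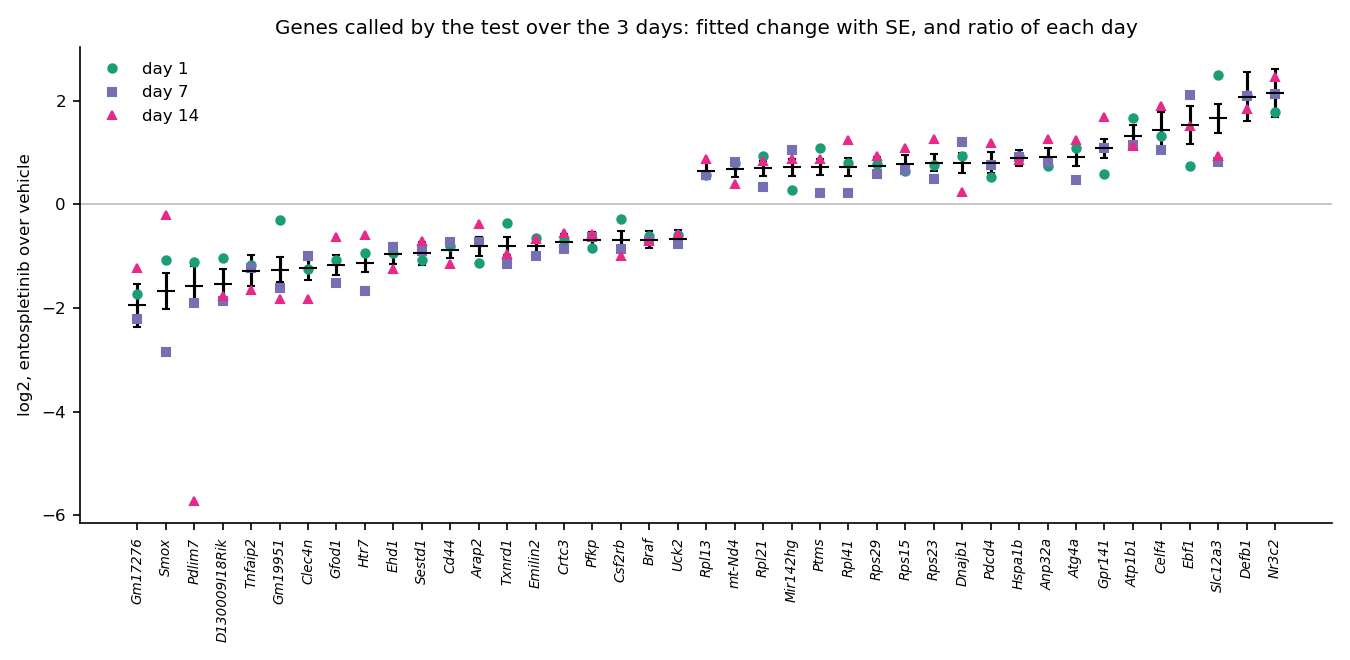
Log2 fold change of entospletinib to vehicle over the 3 days for the 41 called genes outside the cell rule, as fitted by edgeR with SE, beside the relative ratio of each day. *Htr7* lies at −1.13 and *Gpr141* at 1.09.

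All 22 listed genes of the SYK pathway were tested over the 3 days. None was called by edgeR, beside 0.283% of all genes called higher and 0.257% lower, with a median log2 fold change of −0.04 against 0.01 over all genes tested. In the same-day comparisons 19, 19 and 20 were tested and none was past the fold, beside 0.724, 1.13 and 1.42% of all genes, with medians of 0.05, 0.02 and −0.07. *Syk*, the target of the drug, lies on chromosome 13 (52583173 to 52648792, plus strand) and was at 731 CPM in control cDC2, 1111, 700 and 742 CPM under vehicle and 779, 832 and 652 CPM under entospletinib (−0.21, SE 0.15, edgeR adjusted p = 0.754). Over all conditions it was at 809 CPM in cDC2, 259 CPM in cDC1 and 457 CPM in macrophages. Against the control, 19, 18 and 18 genes of the list were tested, with 2, 1 and 1 past the fold above, beside 5.65, 4.05 and 4.68% of all genes. *Malt1*, the paracaspase downstream of CARD9, was past the fold above the control on all 3 days (278 CPM, then 1013, 935 and 817 CPM), at 573, 615 and 860 CPM under entospletinib (−0.52, SE 0.16, edgeR adjusted p = 0.178). *Fgr*, a kinase of the SRC family, was past the fold at day 1 (242 and 707 CPM).

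In the test over the days 0.283% of all genes were called higher and 0.257% lower. Of the other lists, heat shock had 2 higher and none lower among 11 tested, with 11 of 11 fold changes above 0 and a median of 0.36. Over all genes 3985 of 7784 were above 0, and it was 2 of 12 for lipid and repair genes, 3 of 14 for C-type lectins and 91 of 97 for ribosomal protein genes. Of the 2 heat shock calls, *Dnajb1* was not called by DESeq2, with the ribosomal protein limit or without cells holding other-class counts. The costimulation list had none of 11 called and a median of −0.30, with *Cd86* at −0.30 (SE 0.16, adjusted p = 0.605) and *Cd80* at −0.33 (SE 0.16, adjusted p = 0.515) by edgeR. The glucocorticoid list had none of 14 called, with *Zbtb16* at 1.0 (SE 0.41, adjusted p = 0.564) and *Fkbp5* at 1.09 (SE 0.34, adjusted p = 0.374). *Cd44* was the only call among 17 genes of migration, *Csf2rb* among 17 receptors for growth factors, *Clec4n* among 14 C-type lectins and *Pfkp* among 11 genes of hypoxia and glycolysis. MHC class II (15 tested, median 0.04), MHC class I (13, 0.12), cytokines (9, −0.16), chemokines (9, −0.02), NF-κB (13, −0.18), interferon-stimulated (15, 0.00), immediate early (22, 0.02), cell cycle (16, 0.19), Toll-like receptors (9, −0.08), Fc receptors (4, 0.06), lipid and repair genes (12, −0.32), dendritic cell identity (17, −0.06) and genes of cDC2 subsets (11, 0.15) had no call.

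Markers of other cells were counted in cDC2 at levels that differed between the pools. The sums below leave out the genes of the cell rule, but the rule also removed cells with counts of those genes, so that a level below that of all other cells was partly set by the choice of cells. The summed level of 7 distal nephron markers was 64.3 CPM in the control, 53.8, 41.2 and 36.6 CPM under vehicle and 189.5, 77.5 and 106 CPM under entospletinib. At day 1 under entospletinib a single cell held 66.0% of these counts, and the sum was 64.9 CPM without it. That of 8 proximal tubule markers was 234, then 40.5, 47.9 and 25.5, then 37.4, 54.0 and 64.7 CPM, and was 157 CPM in the control without the cell that held 33.7%. The sum of 7 B cell markers was 135, then 21.9, 50.1 and 53.1, then 43.3, 105 and 139 CPM, and without the top cell of each pool it was 67.5 and 94.3 CPM under entospletinib at days 7 and 14. Neutrophil markers were at 45.3 CPM in the control, 213, 181 and 102 CPM under vehicle and 254, 65.3 and 116 CPM under entospletinib, with *Ly6g*, *Ngp* and *Camp* at 0 in every pool. Without the top cell of each pool these sums were 31.7, then 158, 134 and 95.7, then 186, 55.9 and 81.0 CPM.

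The cDC1 markers outside the rule were highest in the control, at 254 CPM, beside 109, 112 and 107 CPM under vehicle and 113, 139 and 69.3 CPM under entospletinib. Among them *Cadm1*, an adhesion molecule, was past the fold below the control on all 3 days (236 CPM, then 59.8, 81.3 and 61.7 CPM under vehicle), with ratios of −2.15 (SD 1.05), −1.32 (SD 1.64) and −1.84 (SD 0.77). Other cells had −1.78, −0.83 and −0.95, and its part in the other differences from the control was not tested. Monocyte markers were at 133 CPM in the control, 305, 223 and 152 CPM under vehicle and 253, 106 and 153 CPM under entospletinib. *Plac8* was past the fold above the control at day 1 (38.7 and 107 CPM, 1.28, SD 0.95). In the test over the days, 0 of 5 monocyte and 0 of 4 neutrophil genes tested had a fold change above 0 (medians −0.33 and −0.51), beside 3985 of 7784 over all genes, and none was called. The part of these markers in the genes called lower was not tested. Macrophage markers outside the rule ranged from 277 to 439 CPM with *Vsig4* at 0 in every pool. Plasmacytoid dendritic cell markers were at 974 CPM in the control, 623, 852 and 523 CPM under vehicle and 690, 912 and 670 CPM under entospletinib, beside 719 CPM in all other cells. They lay above that in the control and at day 7 under vehicle and entospletinib. Without the top cell of each pool they were at 893, 727 and 834 CPM in these 3 pools. Their part in the differences between the pools was not tested. *Ccr7* dendritic cell markers were lowest in the control, at 39.4 CPM, beside 61.2, 120 and 109 CPM under vehicle and 66.7, 48.7 and 97.1 CPM under entospletinib. Their part in the genes above the control was not tested. Endothelial markers ranged from 69.4 to 120 CPM, T cell markers from 28.1 to 60.1 CPM, NK cell markers from 1.17 to 9.25 CPM and stromal markers from 1.17 to 9.25 CPM. Between 31.4 and 48.4% of cDC2 in a pool held 2 or more counts of the other-class markers, which do not include those of macrophages, monocytes and other dendritic cells. Without those cells the test over the days called 8 genes higher and 5 lower, among them *Htr7*, *Cd44*, *Gpr141*, *Hspa1b*, *Gfod1*, *Csf2rb* and *Anp32a*.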

How the data were processed

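Kidney cells of 7 conditions, each a pool of 3 mice, were barcoded with a combinatorial kit (Parse Evercode). The authors processed reads with the Parse pipeline (version 1.1) against mm10, per the labels and the study's methods, and the annotation release is not given in the sources used here. The matrix deposited by the authors held raw counts of transcripts, not normalized. Conditions were read from the cell table they deposited, since each of the 8 sublibraries held cells of all conditions. Of 105340 well combinations, 13712 were seen in 2 or more sublibraries (23.8% of barcodes), and 0 of these had different conditions. A condition goes with the first barcode well, which is part of the combination, so this 0 was set in advance and checks nothing.

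The members and the gene lists were chosen with earlier results of these data known. Cells were kept by the rule given in the report. The study's limit on ribosomal protein counts (1.5%) was not part of it and was an alternative. No doublet caller was run. Cells with 2 or more counts of other-class markers were removed in an alternative, and 1.81% of cDC2 exceeded 10000 counts, beside 1.84% of all cells.

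Shares were given with exact Clopper-Pearson intervals and CPM with exact Poisson intervals (95%), which cover counting error only. Ratios had 0.5 counts added, scaled to library size, and were centred on the median gene, whose log2 ratio ranged from −0.21 to 0.29 over the 6 comparisons. The summed cDC2 counts per pool ranged from 216329 to 3142311. Treatment was tested over the 6 injured pools with edgeR 4.0.16 (quasi-likelihood, TMM, day as a factor) in R 4.3.3 with Benjamini-Hochberg adjustment at 0.05, and DESeq2 1.42.0 was an alternative. The same-day pools were paired by day, as the labels of the cell table give it. Other work used Python 3.11.15, numpy 2.4.6, scipy 1.17.1 and pandas 2.3.3. On simulated data the treatment test recovered 42% of 200 genes changed 2-fold and 100% of those changed 4-fold with 10 false calls, and the fold rule recovered 96.5 to 100% of genes changed 3-fold. The data for the treatment test had 1 fixed dispersion and no difference between days. Those for the fold rule were Poisson counts, without genes held by single cells. Changed genes were at 100 CPM or more in both, so the recovery does not describe genes at lower levels or carried by few cells.

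Genes to name were drawn from a set fixed by rule: up to 10 genes past the fold per direction and comparison (not rule, mitochondrial or ribosomal protein genes), the 10 lowest p per direction of the test, list members, and the 20 leading genes of cDC2. The text describes a selection of that set. Among those left out are *D130009I18Rik* and *Gm17276*, called lower in the test, and *AA467197*, *Gm47283* and *Rn7sk*, each first in its comparison and direction. *Pfkp*, *Csf2rb*, *Celf4*, *Dnajb1*, *Defb1* and *Ebf1* were named in the test as well, and *Defb1* and the ribosomal protein genes past the rule were chosen after their values were seen. Gene positions are from GENCODE vM21 (GRCm38).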

Additional observations from a re-analysis of the deposited data

Results flagged for a closer look

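The share of cDC2 with entospletinib over vehicle went in opposite directions at 2 days, with a log2 ratio of 0.60 at day 7 and −2.31 at day 14, all 8 sublibraries on the respective side. Cells of at least 1000 counts were also thinned to 1000, with 2 marker counts asked for and the other limits unchanged. These ratios were then 0.68 and −0.47, with 7 of 8 sublibraries on that side each time. In the same cells without thinning and with the main rule they were 0.36 (7 of 8) and −1.55 (8 of 8). The difference between the days was not tested, and depth differed between the pools (median 3685 and 1887 counts per cDC2 with entospletinib).

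Within cDC2, 4 genes were past the fold in opposite directions on different days. *Cdk8* had 1.29 at day 1 and −1.33 at day 7, *Il31ra* had 2.98 at day 1, −1.56 at day 7 and 1.44 at day 14, *Rpph1* had 2.57 at day 1 and −1.91 at day 7, and *Scarna2* had −2.74 at day 7 and 1.63 at day 14. None of these differences between days was tested, and the ratios in all other cells of the same pools had the same sign wherever both were named above.

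Outside the limits on cells, 13 of 29426 barcodes met the marker rule, with 5 in the control, 2 with vehicle at day 1, 2 with vehicle at day 7, 3 with entospletinib at day 7 and 1 at day 14. Of these, 11 had 25% or more mitochondrial counts and 4 had 20000 counts or more.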

How the results depend on the processing

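With dendritic cells as denominator the share ratio of entospletinib to vehicle was −0.23 at day 1 (a turned direction), 0.072 at day 7 and −0.78 at day 14, and that of vehicle to control was 0.18 at day 1 and 0.092 at day 7 (both turned) and 0.066 at day 14. Thinning was to 1000 counts, with 2 marker counts asked for in place of 4 and the other limits unchanged. The share ratio was then 1.14 at day 1 and −0.47 at day 14 for entospletinib over vehicle. For vehicle at day 14 over control it was 0.80, and 0.85 in the unthinned data without cells holding other-class counts. At day 14 entospletinib over vehicle gave −1.92 and −3.04 with a minimum of 3 and 6 marker counts, −2.65 with the ribosomal protein limit, −1.82 with more than 500 genes per cell and −1.55 with at least 1000 counts and no thinning. Vehicle at day 7 over control gave −0.074 with more than 500 genes and −0.064 with at least 1000 counts and no thinning. Leaving out a sublibrary moved the ratios of entospletinib to vehicle between 0.29 and 0.51, 0.56 and 0.65, and −2.35 and −2.25, and those of vehicle to control between −1.40 and −1.30, −0.31 and −0.25, and 0.36 and 0.48.

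Genes past the fold with entospletinib numbered 9 at day 1 without cells holding other-class counts, 35 and 36 at day 7 with a minimum of 50 CPM and with the ribosomal protein limit, and 61 and 47 at day 14 with a minimum of 50 CPM and of 6 marker counts. Without 1 sublibrary they numbered 14 to 19, 19 to 36 and 35 to 42, and 210 to 231, 103 to 142 and 118 to 135 for vehicle over control. The fold rule asks for all 8 sublibraries, so 1 fewer is easier to meet. Of 106 named values 0 reversed under any setting run, and 103 were still past the fold with TMM, 86 with the ribosomal protein limit, 83 with 6 marker counts, 70 without cells holding other-class counts and 64 after thinning. These values were chosen as past the fold with all 8 sublibraries on 1 side. The lack of reversals was thus largely set by the choice, above all without 1 sublibrary.

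The test over the days called 5 genes with DESeq2, 13 with the ribosomal protein limit, 13 without cells holding other-class counts, and 1 to 19 without a day. With no replicate block, that is, without pairing the pools by day, it called 0 (416 at an unadjusted p below 0.05, lowest adjusted p = 0.4256 by edgeR), while DESeq2 in the paired design called 5. Size factors of DESeq2 in edgeR gave 39 and no low-count filter 46. The causes were not tested. The settings of at least 1000 counts without thinning, 2 counts added, removal of the top cell and the test without cells holding other-class counts were chosen after seeing the data. With 216329 counts, entospletinib at day 14 limits what can be seen there.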
